A study of Homo sapiens with 12 samples.

Results

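Divergent transcripts are long noncoding RNAs that start at the promoter of a protein-coding gene and are transcribed away from it on the opposite strand. GENCODE names each one after its coding neighbour with the ending -DT, so that NIPBL-DT is the divergent transcript of NIPBL. The deposited table held 272 rows with such a name, out of 17013 rows in all and out of 590 genes with this ending in GENCODE release 44. The coding gene named before -DT, called the partner below, had a row of its own for 268 of them. The 4 transcripts without a measured partner were those of CHKB, C2orf74, PKD2L2 and SLC17A6.

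The libraries came from HCC1806, an established human triple-negative breast cancer (TNBC) line that expresses the kinase MLK4 (gene MAP3K21). Cells were transfected with a pool of siRNAs against MLK4 (siMLK4) or with a non-targeting control (siNT), and then received vehicle (DMSO in the labels) or 1 μM doxorubicin, a topoisomerase II poison that breaks DNA. There were 4 groups of 3 libraries: siNT with vehicle, siNT with doxorubicin, siMLK4 with vehicle and siMLK4 with doxorubicin. The titles place the vehicle libraries at 0 h and the doxorubicin libraries at 24 h, while the study's methods and supplement describe DMSO or untreated cells beside treated ones over the same drug interval. The sources thus differ, and only if the titles are times of collection would the drug and the time after transfection be confounded. All cells were transfected, no untransfected group was analysed, and 1 siRNA pool and 1 cell line stand for the knock-down. The 3 libraries of a group are described as triplicates and not as separate experiments, so p-values measure the spread between these libraries, which may be technical. The descriptions of siMLK4 doxorubicin replicates 2 and 3 end in the same sample number, but their titles and their values differ, and both were used. The 12 libraries held between 16759025 and 19302248 reads in the rows of the table.

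The targeted gene followed the labels. With vehicle, MAP3K21 had 553, 670 and 674 normalized reads in siNT cells and 103, 94.7 and 88.7 in siMLK4 cells. With doxorubicin the values were 758, 856 and 772 in siNT cells and 113, 138 and 94.4 in siMLK4 cells. The groups did not overlap, and 15.1% and 14.5% of the control level remained. A normalized read is a read count divided by the size factor of its library, which scales the libraries to each other. Of the basal epithelial markers KRT5, KRT14, KRT17, EGFR and TP63, the lowest value in any library was 842 normalized reads (KRT14). The hormone receptor gene PGR was listed at 0 in every vehicle library, ESR1 lay between 36 and 148, and ERBB2 between 1270 and 2030.

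Most mammalian promoters fire in both directions. The upstream product is usually short, capped and unstable, because early polyadenylation signals end its transcription and the nuclear RNA exosome degrades it. U1 snRNP, which recognises 5′ splice sites, protects the coding direction from such early ends, and the Integrator complex also terminates transcription close to promoters. A divergent transcript in a poly(A)-selected library is therefore the part of this output that was polyadenylated and survived.

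All 272 divergent transcripts lay on the strand opposite to the partner. In 255 of them the 2 annotated gene starts were within 2000 bases of each other, with a median distance of 86 bases (quartiles -30 and 167, where a negative value means that the genes overlap at their starts). Starts were apart in 186 and overlapped in 69 of these. The remaining 17 started farther away, among them ZNF584-DT, whose start distance was -6980 bases. Reads were assigned by strand, so overlapping partners were counted separately. The shared promoters of 7 pairs that the results below turn on are shown as they stand in GRCh38, written 5′ to 3′ on the strand of the coding gene. Capitals mark the bases between the 2 annotated starts, and the lower-case ends are the first 25 bases of the divergent transcript (left, as its reverse complement) and of the coding gene (right). The first 6 divergent transcripts rose or were abundant, and BOLA3-DT fell.
ITPRID2-DT and ITPRID2, chr2:181891639-181891754, plus strand: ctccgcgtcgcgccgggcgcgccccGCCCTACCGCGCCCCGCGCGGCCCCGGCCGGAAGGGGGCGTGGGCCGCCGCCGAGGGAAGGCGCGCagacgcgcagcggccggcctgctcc
NIPBL-DT and NIPBL, chr5:36876676-36876793, plus strand: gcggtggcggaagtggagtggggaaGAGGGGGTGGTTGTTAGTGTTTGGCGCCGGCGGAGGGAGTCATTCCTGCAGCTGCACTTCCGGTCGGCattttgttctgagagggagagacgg
EIF3J-DT and EIF3J, chr15:44537022-44537149, plus strand: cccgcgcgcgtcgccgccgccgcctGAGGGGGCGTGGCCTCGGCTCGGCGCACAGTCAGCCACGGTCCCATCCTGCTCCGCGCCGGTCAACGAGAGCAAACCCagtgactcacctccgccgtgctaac
NUP50-DT and NUP50, chr22:45163787-45163949, plus strand: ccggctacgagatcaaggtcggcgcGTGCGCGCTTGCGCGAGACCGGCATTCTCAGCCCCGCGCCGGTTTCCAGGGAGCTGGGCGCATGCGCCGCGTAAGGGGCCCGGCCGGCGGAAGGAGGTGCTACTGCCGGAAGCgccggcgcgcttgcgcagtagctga
AP1AR-DT and AP1AR, chr4:112231572-112231764, plus strand: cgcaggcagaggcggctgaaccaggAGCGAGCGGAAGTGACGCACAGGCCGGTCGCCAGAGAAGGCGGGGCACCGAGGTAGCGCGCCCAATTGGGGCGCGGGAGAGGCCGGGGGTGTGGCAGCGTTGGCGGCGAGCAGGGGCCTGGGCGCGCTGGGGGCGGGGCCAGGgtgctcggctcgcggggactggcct
OSER1-DT and OSER1, chr20:44210747-44210931, minus strand: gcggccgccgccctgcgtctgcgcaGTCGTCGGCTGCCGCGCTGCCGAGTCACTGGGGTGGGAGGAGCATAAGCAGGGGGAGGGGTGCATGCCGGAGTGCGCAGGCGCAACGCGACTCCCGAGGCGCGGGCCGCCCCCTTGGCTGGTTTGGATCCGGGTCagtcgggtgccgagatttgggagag
BOLA3-DT and BOLA3, chr2:74147888-74148031, minus strand: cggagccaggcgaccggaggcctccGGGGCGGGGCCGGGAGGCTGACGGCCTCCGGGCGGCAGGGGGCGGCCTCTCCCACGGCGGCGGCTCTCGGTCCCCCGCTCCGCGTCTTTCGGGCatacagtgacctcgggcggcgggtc

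These intervals were short and rich in G and C. Between the starts there were 66 bases at ITPRID2 with 87.9% G or C, 68 bases at NIPBL with 64.7%, and 94 bases at BOLA3 with 83.0%. RefSeq promoter windows (GRCh38.p14, 250 bases before to 50 after the gene start) were found for 211 divergent transcripts. The median G and C content was 69.3% in these windows and 58.3% in all 27305 RefSeq promoters, with a median of 31 CG dinucleotides against 14. TATAAA, searched on both strands, was present in 4.7% of the divergent windows and in 12% of all promoters, and GGGCGG in 73.9% and 44.6%. CCAAT was found in 31.8% and 35.7%. The 230 windows of partners gave 5.2%, 73.0% and 40.9% for the same 3 motifs, and many of them overlap the window of the divergent transcript.

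The first 1000 bases of the 2 directions differed in composition. AATAAA, the common polyadenylation signal, was present on the transcribed strand in the first 1000 genomic bases of 86 of 272 divergent transcripts (31.6%) and of 35 of 268 partners (13.1%), against 22.5% of 16956 rows with a window. GTAAGT, a strong 5′ splice site, was present in 16.9% of divergent transcripts, 10.4% of partners and 16.1% of all rows. The median G and C content of the windows was 53.5% for divergent transcripts and 61.8% for partners. These are matches of letters, and in both motifs the other lncRNA rows (34.9% and 17.9%) lay close to the divergent transcripts.

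Divergent transcripts were measured at low levels. Their mean over all libraries had a median of 21.0 normalized reads (quartiles 12.4 and 58.2, range 4.36 to 1150), and 66 of them reached a mean of 60. Per kilobase of exon, the divergent transcript stood at a median of 2.73% of its partner in siNT cells with vehicle (267 pairs, since CABP1 was listed at 0 there), 10.0% in siNT cells with doxorubicin, 4.42% in siMLK4 cells with vehicle and 12.9% in siMLK4 cells with doxorubicin. The partner was exceeded in 8 pairs in the first group, 17 in the second, 12 in the third and 15 in the fourth. The most abundant was ZNF584-DT, followed by PPP1R3B-DT, RAB30-DT, IRX2-DT, NIPBL-DT, ZNF8-DT, EIF3J-DT and GAS6-DT. Of these, PPP1R3B-DT, beside the gene of a glycogen-targeting phosphatase subunit, varied little: its 12 libraries lay between 699 and 957 normalized reads, and neither doxorubicin contrast was called.

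The lowest mean that any row showed in its highest group was 10.67 normalized reads, and this edge of the table bears on the counts. Of the 272 divergent transcripts, 150 were below the edge in at least 1 group and 122 were not, while 13803 of all 17013 rows were not. Of the 150, 133 had their highest mean with doxorubicin, and no such count is given for all rows. A transcript that is silent in vehicle enters such a table only if it is present elsewhere. Counts are therefore given also for the 222 members whose mean over all 12 libraries was at or above the edge, for the 66 with a mean of at least 60, and for the 122 at or above the edge in every group. The medians per kilobase above are over all pairs and were not repeated for these subsets. The part that this selection has in their lower vehicle values was not tested.

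The summed output of the divergent transcripts was higher with doxorubicin. It is given as RPM, reads per 1000000 reads of the library in the table. In siNT cells it took 563, 514 and 525 RPM with vehicle and 1260, 1110 and 995 with doxorubicin. In siMLK4 cells the sums were 678, 674 and 796 with vehicle and 1280, 1370 and 1130 with doxorubicin. The vehicle and doxorubicin libraries did not overlap in either siRNA group, and with 3 libraries a side an exact permutation test cannot go below p = 0.1. The group means were 534 ± 25.4 and 1120 ± 134 in siNT cells and 716 ± 69.7 and 1260 ± 120 in siMLK4 cells (SD, n = 3). In normalized reads the means of the sums were 10800 ± 687 and 19300 ± 2010 in siNT cells. In siMLK4 cells they were 13200 ± 1560 and 20400 ± 1760, so the relative rise was smaller on this scale. All 272 rows enter the sums, also those below the edge in some group, and no sum is given without them. The part that this selection has in the rise was not tested. All other lncRNA rows together moved from 9700 ± 661 to 12200 ± 752 RPM in siNT cells. In siMLK4 cells they moved from 10800 ± 1050, with 1 vehicle library at 12000, to 12200 ± 9.82. The partners together took 3.01% to 3.28% of the reads in the siNT libraries of both treatments and 2.52% to 2.88% in the siMLK4 libraries. These are bulk libraries, so more transcript in each cell and more cells with the transcript cannot be told apart.

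**Figure D1:**
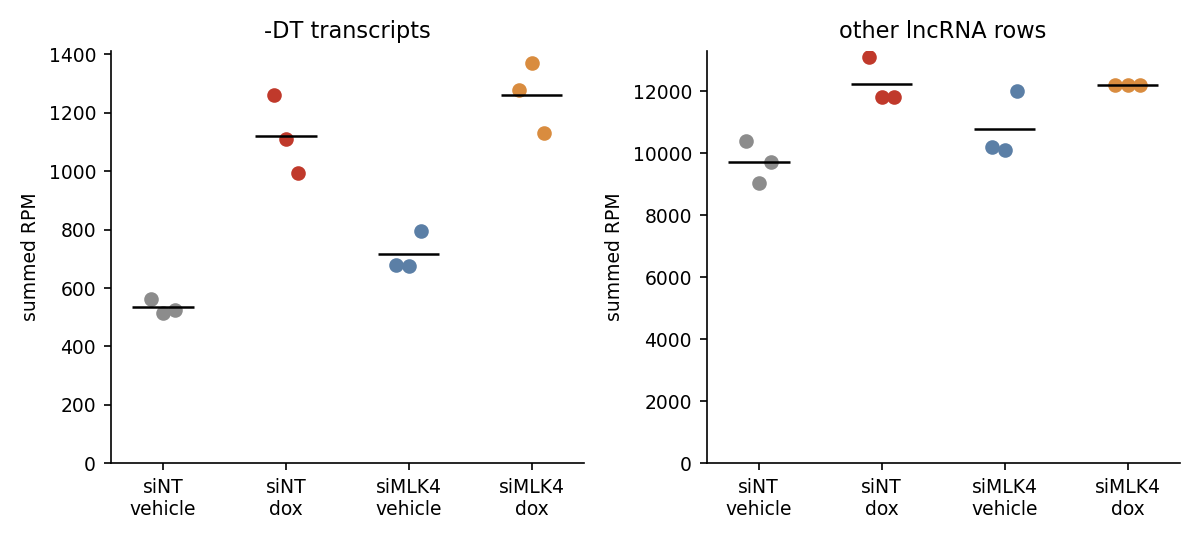
Summed RPM over the 272 -DT transcripts (left) and over the 2190 other lncRNA rows (right), on linear axes from 0. Rows below the edge of the table in some group are included. Each point is 1 library and each line the mean of 3. The -DT sums of the 6 doxorubicin libraries (995 to 1370) lie above all 6 vehicle libraries (514 to 796).

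To ask how many single transcripts took part, the deposited log2-scale values of all 17013 rows were fitted with limma, and a row was called at a Benjamini-Hochberg adjusted p below 0.01 and an absolute log2 difference above 0.75. Differences are on the variance-stabilized scale, which understates the change of rows with few reads. In siNT cells 91 divergent transcripts rose with doxorubicin, 33.5% of the 272, while 12.1% of all rows were called higher. Only 3 fell (1.1%), against 10.6% of all rows. On the scale of log2 normalized reads plus 1, 150 rose (55.1%, beside 18.8% of all rows), and limma-voom on reads gave 145 (53.3%, beside 18.0%). The median difference was 0.53 over the divergent transcripts, 0.32 over the 2190 other lncRNA rows and 0.00 over all rows, and 236 of the 272 were positive. Other lncRNA rows were called higher in 21.0% and lower in 2.97%, and the partners in 8.21% and 11.9%. The 694 other lncRNAs that lie head-to-head with a coding gene were close to the divergent transcripts, with 229 higher (33.0%), 4 lower (0.576%) and a median of 0.58.

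The counts were close where knock-down preceded the drug. In siMLK4 cells 83 divergent transcripts rose (30.5%) with a background of 12.6% of all rows, and 2 fell (0.735%) with a background of 10.6%. The other scales gave 129 (47.4%, beside 18.1% of all rows) and, in limma-voom, 128 (47.1%, beside 18.3%). Of the libraries whose descriptions share a sample number, leaving out siMLK4 doxorubicin replicate 2 gave 68 and leaving out replicate 3 gave 91. The median difference was 0.46, with 0.24 over the other lncRNA rows and 0.02 over all rows. Of the 694 head-to-head lncRNAs 220 were higher (31.7%) and 6 lower (0.865%). The 72 transcripts called higher in both siRNA groups made up 79.1% of those called in siNT cells and 86.7% of those called in siMLK4 cells. No such overlap is given for all rows, so these shares only describe the divergent transcripts and do not set them apart. None was called in opposite directions. The 2 contrasts use separate libraries, and the correlation of their differences across the 272 transcripts was r = 0.86, which describes transcripts measured in shared libraries and not independent replicates.

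Away from the edge of the table the share that rose depended on how members were chosen. Of the 222 transcripts with an overall mean at or above the edge, 84 rose in siNT cells (37.8%), beside 12.2% of all rows at this level, and 75 rose in siMLK4 cells (33.8%, beside 12.5%). Of the 66 with a mean of at least 60, 28 rose in siNT cells (42.4%, beside 10.2%) and 23 in siMLK4 cells (34.8%, beside 10.7%). A mean over all libraries can still be carried by the doxorubicin libraries alone. The 122 transcripts at or above the edge in every group included 35 that rose in siNT cells (28.7%, beside 9.73% of 13803 rows) and 28 in siMLK4 cells (23.0%, beside 9.99%). Their median differences were 0.47 and 0.28, beside -0.06 and -0.04 over the rows chosen in the same way. Where rows needed 10 reads in every library, 100 divergent transcripts remained, and 28 of them rose in siNT cells (28.0%, beside 9.42% of 13295 rows) and 22 in siMLK4 cells (22.0%, beside 9.7%). Coding rows with an overall mean from the edge to 60 were called higher in 17.6% and 20.1%.

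Shares are given by position without a test of their differences. In siNT cells 31.7% of the 186 transcripts with starts apart, 39.1% of the 69 with overlapping starts and 29.4% of the 17 farther away rose. In siMLK4 cells the shares were 28.5%, 34.8% and 35.3%, so the farther class was lowest in one siRNA group and highest in the other. The 224 that neither overlap another gene on their own strand nor have a coding gene end within 10 kb upstream, where read-through could reach them, included 77 that rose (34.4%). Across the whole table fewer rows were empty with doxorubicin. Rows listed at 0 numbered 313 to 354 in siNT cells with vehicle and 27 to 42 with doxorubicin, and 200 to 219 and then 17 to 21 in siMLK4 cells. Single low genes went both ways. PTPRC, a leukocyte gene, had means of 5.48 and 20.3 normalized reads in siNT cells and 1.75 and 17.9 in siMLK4 cells, and CD14, a monocyte gene, 11.4 and 25 and then 26.8 and 36.9. PDGFRB, a receptor gene of fibroblasts, had 14.1 and 2.86 in siNT cells and 23.6 and 4.56 in siMLK4 cells, and the collagen gene COL1A1 286 and 267 and then 529 and 405. Of the hormone receptor genes, PGR had 0 with vehicle and 13.3 and 11.7 with doxorubicin, whereas ESR1 had 92.7 and 46.5 in siNT cells and 117 and 49.0 in siMLK4 cells. Of the 8 leukocyte, fibroblast and endothelial markers, 4 had rows (PTPRC, CD14, COL1A1 and PDGFRB), COL1A1 was the most abundant (254 to 577 in single libraries), and CD3E, DCN, PECAM1 and CDH5 had none. COL1A1 made up 83.0% to 91.9% of the sum of these markers, which was 301 to 349 and 301 to 342 normalized reads in siNT cells and 547 to 638 and 412 to 532 in siMLK4 cells. Without COL1A1 the sum was 28.2 to 34.8 with vehicle and 39.7 to 58.1 with doxorubicin in siNT cells, which did not overlap, and 45.1 to 60.5 and 53.5 to 68.4 in siMLK4 cells, which did. The part of these markers and of the change in empty and low rows in the result was not tested.

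**Figure D2:**
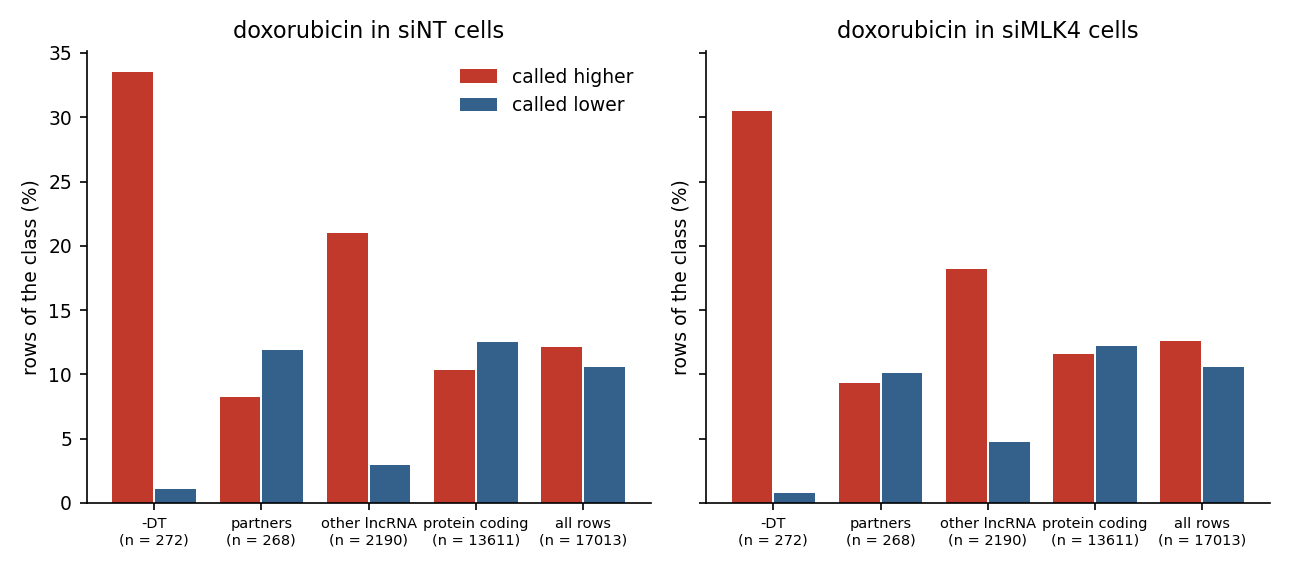
Share of rows called higher (red) and lower (blue) with doxorubicin, in percent of each class, in siNT cells (left) and siMLK4 cells (right). The -DT bars for called higher (33.5% and 30.5%) are the tallest in both panels, followed by all other lncRNA rows (21.0% and 18.2%), whose 694 head-to-head members alone stood at 33.0% and 31.7%.

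Among the transcripts that rose most, GOLPH3-DT (chr5:32173960-32175273, plus strand) overlaps the start of the gene of a Golgi phosphoprotein. It had 44.6, 34.3 and 24.7 normalized reads in siNT cells with vehicle and 299, 254 and 150 with doxorubicin. In siMLK4 cells the values were 40.1, 37.9 and 59.5, then 337, 365 and 280. Every doxorubicin library was above every vehicle library, with log2 differences of 1.82 (SE 0.19, limma adjusted p = 2.8e-06) and 2.05 (SE 0.19, adjusted p = 1e-06). GOLPH3 itself went from 4610, 4160 and 5010 to 2550, 2560 and 3210 in siNT cells, a log2 difference of -0.72 that was short of the fold threshold and not called.

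GSK3B-DT (chr3:120094895-120136783, plus strand) is the divergent transcript of a kinase of Wnt and insulin signalling. Its values in siNT cells were 18.8, 20.8 and 29.2 with vehicle and 181, 176 and 137 with doxorubicin. It rose by 1.71 on the log2 scale (SE 0.14, limma adjusted p = 3.3e-07), while GSK3B fell by 0.78 (limma adjusted p = 0.00046). The 2 directions of this promoter thus moved apart, and neither set of libraries overlapped. In siMLK4 cells GSK3B-DT also rose (log2 difference 1.45, limma adjusted p = 1.3e-06), and GSK3B was not called (-0.51).

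ITPRID2-DT (chr2:181887851-181891663, minus strand) starts 67 bases from ITPRID2, which encodes a partner of inositol trisphosphate receptors. It had only 5.87, 2.08 and 11.2 normalized reads in siNT cells with vehicle and 84, 89.6 and 75 with doxorubicin. In siMLK4 cells it went from 16, 13.9 and 13 to 72.1, 90.1 and 62.6. The 6 doxorubicin libraries were all above the 6 vehicle libraries, with log2 differences of 1.62 and 1.15 (SE 0.13 each). ITPRID2 fell from 14200, 14300 and 16900 to 5880, 7820 and 7850 in siNT cells (log2 difference -1.08, limma adjusted p = 2.9e-05).

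AP1AR-DT (chr4:112229561-112231596, minus strand) lies beside AP1AR, the gene of a regulator of the AP-1 adaptor complex. With vehicle it was close to silent, at 17.6, 8.31 and 8.98 normalized reads in siNT cells and 8.02, 3.99 and 8.65 in siMLK4 cells. With doxorubicin it had 156, 124 and 71 in siNT cells and 160, 169 and 119 in siMLK4 cells. These groups were fully separate, and the log2 differences were 1.67 and 2.16 (SE 0.18 each, limma adjusted p = 4.5e-06 and 5.5e-07). AP1AR was not called in either contrast (-0.53 and 0.02).

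NUP50-DT, OSER1-DT and ISL1-DT, divergent from a nucleoporin gene, an oxidative stress responsive gene and a LIM-homeodomain factor gene, rose in both siRNA groups. NUP50-DT had 37.6, 29.1 and 34.8 normalized reads with vehicle and 185, 170 and 145 with doxorubicin in siNT cells, while NUP50 stayed between 3040 and 3580 (log2 difference -0.04). OSER1-DT went from 48.1, 28 and 37 to 246, 235 and 134, and ISL1-DT from 24.7, 11.4 and 14.6 to 145, 133 and 84.2. In siMLK4 cells the log2 differences of the 3 were 1.58, 1.70 and 1.72. FAM193B-DT had 3.52, 2.08 and 4.49 and then 75.7, 58 and 50.7 in siNT cells, from a gene model of 541 exonic bases, and FAM193B was not called (log2 difference 0.04, SE 0.11). CNN3-DT rose by 1.66 in siNT cells, and here the partner, which encodes the actin-binding calponin 3, rose as well (0.90, limma adjusted p = 1.4e-05).

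Among the most abundant members, a rise is shown here only for ZNF584-DT and NIPBL-DT. ZNF8-DT (log2 differences -0.04 in siNT and -0.39 in siMLK4 cells), GAS6-DT (0.47 and -0.29) and PPP1R3B-DT were not called in either contrast. IRX2-DT was not called in siNT cells, and the doxorubicin calls of RAB30-DT and EIF3J-DT are not given. ZNF584-DT, named after a zinc finger gene, lies wholly within ZNF584 on the opposite strand in GENCODE, so by position it is antisense to the gene and not upstream of its promoter. It had 575, 578 and 565 normalized reads in siNT cells with vehicle and 1720, 1490 and 1260 with doxorubicin. Its log2 differences were 1.29 in siNT and 1.18 in siMLK4 cells (SE 0.15 each), against -0.07 and 0.27 for ZNF584. NIPBL-DT (chr5:36864425-36876700, minus strand), beside the cohesin loader gene, went from 167, 126 and 143 to 523, 498 and 397 in siNT cells and from 313, 242 and 297 to 655, 732 and 570 in siMLK4 cells. NIPBL was not called in either contrast (-0.29 and -0.36). NIPBL-DT, NUP50-DT and PPP1R3B-DT each overlap another annotated gene on their own strand, so their reads are less certain.

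The transcripts that fell in siNT cells were BOLA3-DT, BAIAP2-DT and FAM151B-DT. BOLA3-DT (chr2:74148007-74151952, plus strand), divergent from a gene of mitochondrial iron-sulfur cluster maturation, went from 443, 391 and 364 to 190, 165 and 231 normalized reads. Its log2 difference was -0.88 (SE 0.14, limma adjusted p = 0.00011), and -0.91 in siMLK4 cells, where it was called as well. BOLA3 was not called (-0.23 and 0.04). BAIAP2-DT (chr17:81029130-81034881, minus strand), beside the gene of an actin-regulating scaffold, went from 279, 360 and 345 to 185, 154 and 152, together with BAIAP2 (log2 differences -0.82 and -1.44). FAM151B-DT (chr5:80411231-80488095, minus strand) went from 164, 149 and 171 to 73.8, 66.2 and 85.2. It is one of the few that exceeded the partner, since FAM151B had 7.05 to 9.34 normalized reads in the same vehicle libraries. No library of the 2 groups overlapped for the 3 transcripts, but with scaling to library totals, which moved the median of all rows up by 0.176 in this contrast and by 0.143 in siMLK4 cells, their differences became -0.67, -0.62 and -0.61, short of the fold threshold. Without siNT doxorubicin replicate 2 the difference of FAM151B-DT was -0.73, also short of it.

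**Figure D3:**
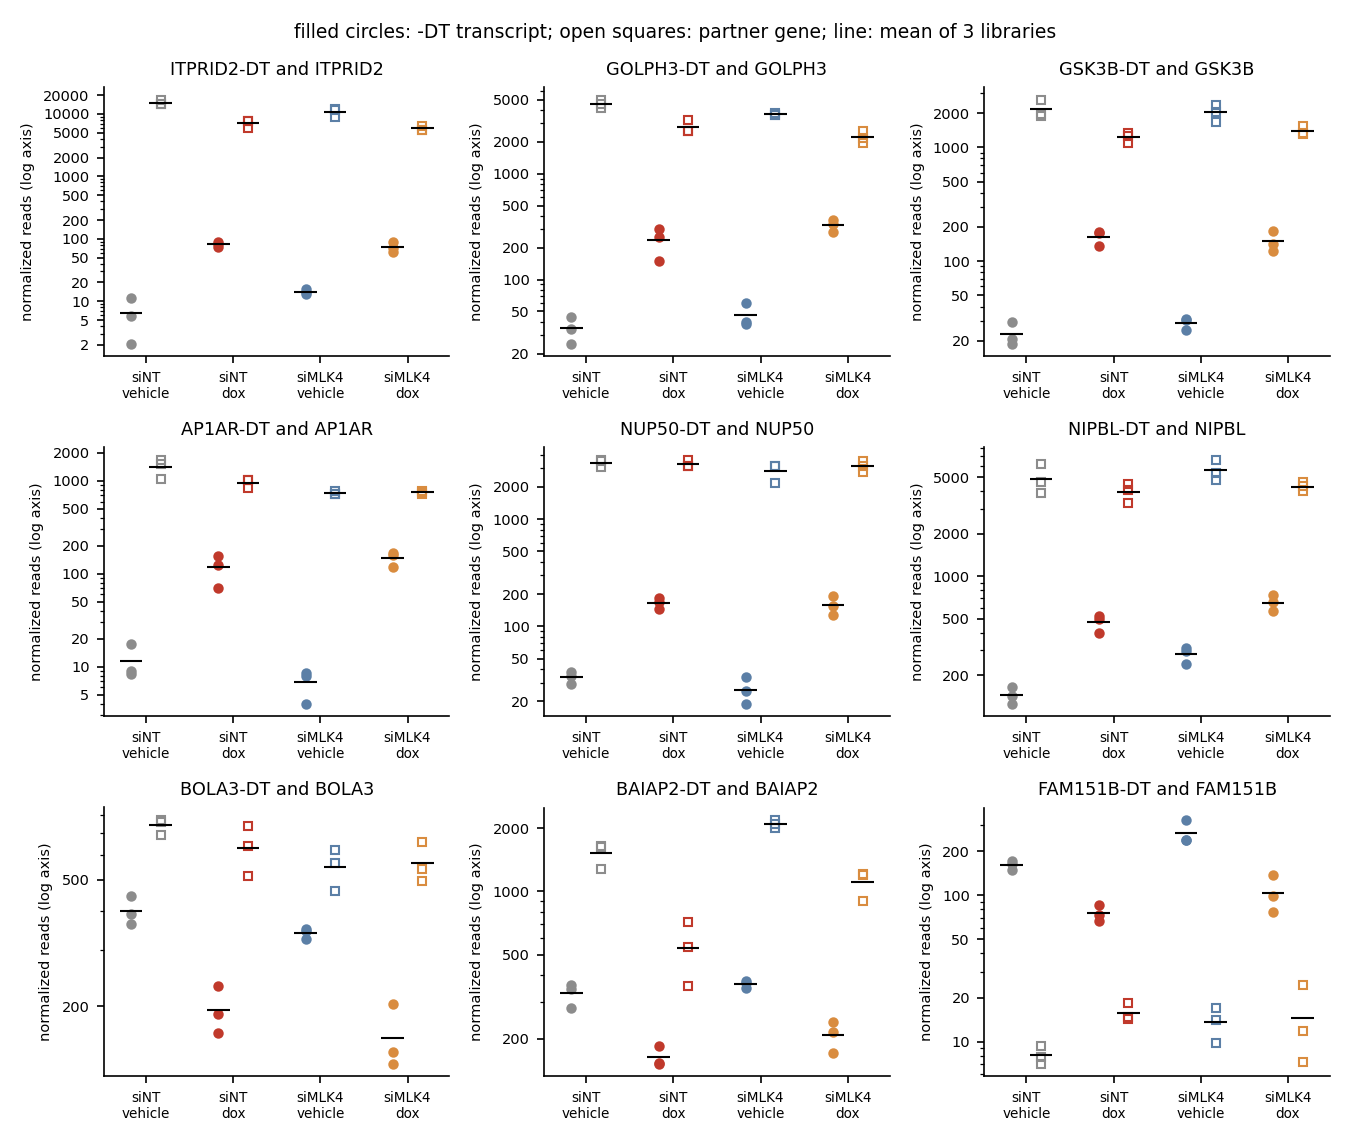
Normalized reads of 9 -DT transcripts (filled circles) and their partners (open squares) in the 12 libraries, on log axes, grouped by siRNA and treatment with the mean of 3 as a line. In the upper 6 panels the -DT transcript rises with doxorubicin in both siRNA groups while the partner stays level or falls, and in the lower 3 panels the -DT transcript falls.

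A rise of a divergent transcript went with no common direction of its partner. Of the 90 transcripts with a measured partner that rose in siNT cells, the partner rose in 12 (13.3%), fell in 11 (12.2%) and was not called in 67, beside 8.21% and 11.9% of all 268 partners. In siMLK4 cells the corresponding numbers for 82 transcripts were 9 (11%), 7 (8.54%) and 66, beside 9.33% and 10.1%. The 2 directions of a promoter had the same sign in 112 of 268 pairs in siNT cells (41.8%) and in 133 in siMLK4 cells (49.6%). Pairs of another lncRNA with a coding gene gave 45.4% and 51.9%, and pairs of 2 coding genes 50.8% and 52.5%. Across the pairs the correlation of the log2 differences was r = 0.09 and r = 0.08, given as a description of pairs that share all libraries.

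**Figure D4:**
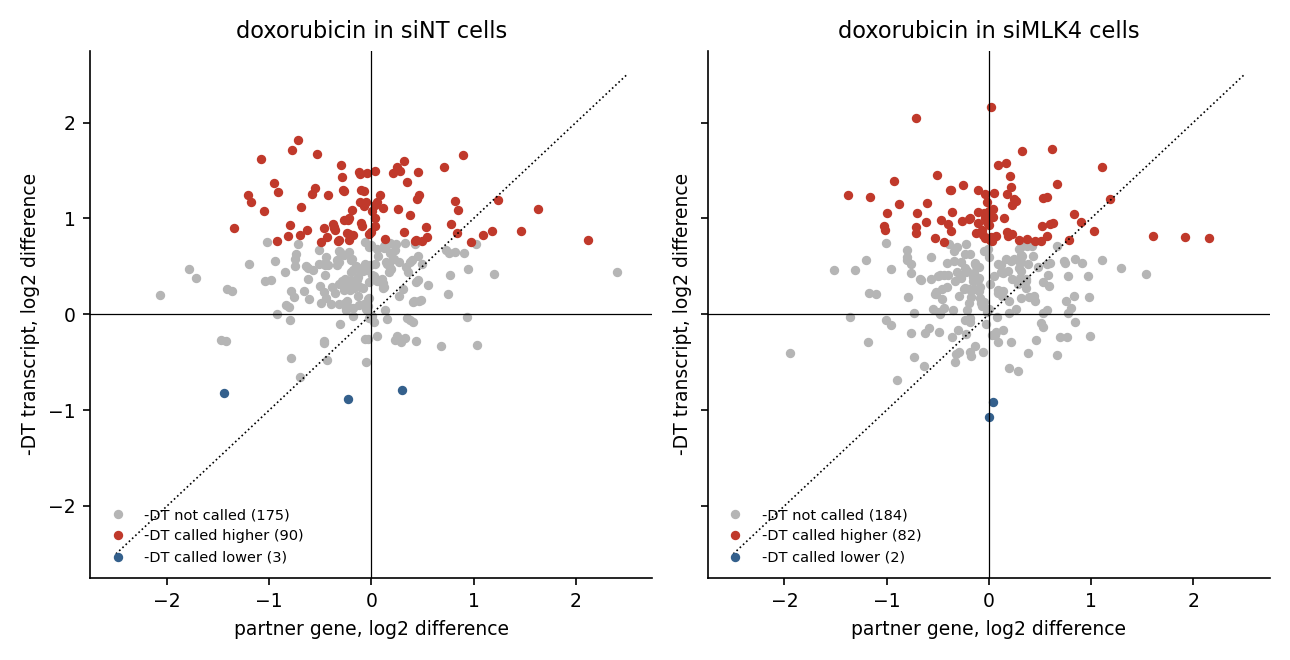
Log2 difference with doxorubicin of each -DT transcript (vertical axis) against that of its partner (horizontal axis) for 268 pairs, in siNT cells (left) and siMLK4 cells (right). The dotted line marks equal changes. Red points (-DT called higher, 90 and 82) spread over both sides of 0 on the horizontal axis.

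The ratio of the 2 directions was then tested itself, as the difference of their log2-scale values over all 2354 head-to-head pairs of the table (2 genes on opposite strands with starts within 2000 bases, and the named pairs), with adjustment over all of them. The ratio of the divergent transcript to its partner rose with doxorubicin in 113 of 268 pairs in siNT cells (42.2%) and fell in 7 (2.61%). In the 2086 other pairs, ordered as the noncoding over the coding gene where the 2 types differ, it was called higher in 27.5% and lower in 11.5%. Pairs of 2 coding genes were ordered as the plus over the minus strand, so higher and lower have no such meaning for them. In siMLK4 cells it rose in 89 -DT pairs (33.2%) and fell in 17 (6.34%), beside 24.7% and 12.1% of the other pairs. These pairs include divergent transcripts below the edge of the table in some group. With 10 reads in every library, 95 -DT pairs remained. In siNT cells 37 rose (38.9%, beside 22.4% of the other pairs) and 2 fell (2.11%, beside 12.8%). In siMLK4 cells 27 rose (28.4%, beside 20.5%) and 7 fell (7.37%, beside 13.6%). The ratio was higher in both siRNA groups in 83 -DT pairs, and no such count is given for the other pairs. The 700 pairs of another lncRNA with a coding gene gave similar shares, 43.6% higher in siNT and 35.6% in siMLK4 cells. The 1243 pairs of 2 coding genes gave 17.9% higher and 16.2% lower in siNT cells, and 18.2% and 16.6% in siMLK4 cells. These shares do not set the transcripts named -DT apart from other lncRNAs that share a promoter with a coding gene.

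The largest ratio changes in siNT cells were those of ITPRID2-DT (2.69, SE 0.19), GOLPH3-DT (2.54, SE 0.27), GSK3B-DT (2.49, SE 0.18), HNRNPD-DT (2.45, SE 0.28) and PHLDA1-DT (2.35, SE 0.25). This order holds on the variance-stabilized scale, which understates the change of rows with few reads. HNRNPD-DT had 9.39, 3.11 and 2.25 normalized reads with vehicle and 72, 44.8 and 34.5 with doxorubicin, and HNRNPD, which encodes the RNA-binding protein AUF1, fell from 10500, 10500 and 9140 to 3900, 3960 and 5140. PHLDA1-DT went from 4.7, 3.11 and 0 to 35.1, 32.6 and 33.5, and PHLDA1 fell by 1.18 on the log2 scale. In these pairs the higher divergent transcript and the lower partner both entered the ratio. Every siNT vehicle library of HNRNPD-DT and PHLDA1-DT was below the edge of 10.67, so these rows stand in the table through other groups. Per kilobase, GSK3B-DT moved from 5.32% to 67.5% of GSK3B in siNT cells, and ITPRID2-DT from 0.107% to 2.93% of ITPRID2.

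Of the 5 pairs whose ratio fell most, the partner was called higher in 3. RASSF10, a RAS association domain gene, went from 88.1, 103 and 68.5 normalized reads to 630, 606 and 738, while RASSF10-DT went from 2.35, 6.23 and 5.61 to 13.8, 8.14 and 23.3. Its ratio change of -1.96 lost the call on the scale of log2 normalized reads plus 1 (-1.47, limma adjusted p = 0.013) and in limma-voom on reads (-1.41, adjusted p = 0.017). SLC12A2, a sodium, potassium and chloride cotransporter gene, rose by 1.03 on the log2 scale, and SLC12A2-DT went from 251, 230 and 254 to 182, 187 and 193 (-0.32, not called), which gave a ratio change of -1.34. CABP1 was listed at 0 in all 3 siNT vehicle libraries and had 99.7, 73.3 and 43.6 with doxorubicin, while CABP1-DT had 2.35, 1.04 and 0 and then 27.7, 9.16 and 9.12. No ratio of reads is defined for this pair with vehicle. Its place among these pairs therefore rests on variance-stabilized values at or near 0 reads and says little about the 2 directions. The other ratios that led in this direction were those of FAM151B-DT (-1.08) and ZDHHC12-DT (-1.01). That of FAM151B-DT lost the call without siNT doxorubicin replicate 2 (-0.99, limma adjusted p = 0.01).

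Knock-down of MLK4 alone was called for few divergent transcripts. With vehicle 6 were higher in siMLK4 than in siNT cells (2.21%, beside 2.51% of all rows) and none was lower (beside 3.14% of all rows). In limma-voom 1 was called lower. The count higher was 2 (0.735%, beside 1.48%) when only these 2 groups were fitted. It was 14 (5.15%, beside 5.26%) on log2 normalized reads plus 1. An unadjusted p below 0.05 was found for 66 (24.3%), beside 37.0% of all rows. The differences were small and mostly positive, with 203 of 272 above 0 and a median of 0.12, beside 0.10 over the other lncRNA rows and 0.01 over all rows. Head-to-head lncRNAs had 498 of 694 above 0 (median 0.13), and coding rows with a mean from the edge to 60 had 1192 of 1771 (median 0.13). Over all rows 8784 of 17013 were above 0, so this lean is not particular to divergent transcripts. The partners were called higher in 2 and lower in 17. The ratio of the divergent transcript to its partner was higher in siMLK4 cells in 26 of 268 pairs (9.7%) and lower in 1 (0.373%), beside 4.55% and 2.68% of the 2086 other pairs. Pairs of another lncRNA with a coding gene gave 6.0% and 0.857%, and the count of -DT pairs fell to 12 (4.48%) in limma-voom, beside 3.6% of the other pairs, and to 12 when only these 2 groups were fitted, beside 1.58%. The 6 were IRX2-DT, MIOS-DT, PDGFA-DT, MAP3K2-DT, NIPBL-DT and CKAP2-DT, and without siNT vehicle replicate 2 only 3 were called. IRX2-DT (chr5:2752131-2755397, plus strand), divergent from a homeobox gene, had 319, 233 and 193 normalized reads in siNT cells and 529, 539 and 756 in siMLK4 cells. The groups were separate (log2 difference 1.14, SE 0.20, limma adjusted p = 0.00079), IRX2 did not follow (0.08), and the adjusted p was 0.011 when only these 2 groups were fitted.

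MIOS-DT, beside a gene of the GATOR2 complex that signals amino acids to mTORC1, had 52.8, 51.9 and 79.7 in siNT cells and 160, 118 and 174 in siMLK4 cells (log2 difference 0.89, limma adjusted p = 0.0012, and 0.014 with only these 2 groups fitted). PDGFA-DT (chr7:520391-530163, plus strand) had 5.87, 10.4 and 13.5 and then 45.1, 36.9 and 45.4 (0.86, limma adjusted p = 0.00019). PDGFA, a growth factor gene, had 3430, 2760 and 2520 and then 1580, 1650 and 1960 (-0.72, not called). MAP3K2-DT was higher by 0.82 and MAP3K2, another kinase of the MAP3K family, lower by 0.77 on the log2 scale; without siNT vehicle replicate 2 MAP3K2-DT was at 0.69, short of the fold threshold. The doxorubicin differences of the same transcripts in siNT cells were 1.54 for MIOS-DT, which was called, and 0.64 for MAP3K2-DT and 0.21 for IRX2-DT, which were not. That of PDGFA-DT rounded to 0.75 and was not called.

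With doxorubicin, 1 divergent transcript was higher in siMLK4 than in siNT cells (0.368%, beside 2.66% of all rows) and 2 were lower (0.735%, beside 2.93%), and in all 3 the partner moved the same way. The counts depended on the scale. On log2 normalized reads plus 1 they were 4 and 4 (beside 4.03% and 4.09% of all rows), and in limma-voom 6 and 6 (beside 4.37% and 4.25%). The ratio was higher in siMLK4 cells in 14 of 268 pairs (5.22%) and lower in 2 (0.746%), with a median change of 0.08 against 0.23 in vehicle. The other pairs gave 3.02% and 2.73%, and 9 -DT pairs were higher in limma-voom (3.36%, beside 2.97%) and 8 without siMLK4 doxorubicin replicate 1. On log2 normalized reads plus 1 only 5 were higher (1.87%), below the share of the other pairs (2.06%). With 10 reads in every library 3 of 95 were higher (3.16%, beside 3.07%). SAP30-DT (chr4:173349543-173370721, minus strand) had 54.4, 43.8 and 29.4 normalized reads in siNT and 143, 166 and 91.6 in siMLK4 cells. Its log2 difference was 1.05, and that of SAP30, which encodes a subunit of the Sin3 histone deacetylase complex, was 0.97. HK2-DT had 34.1, 28.5 and 32.4 and then 9.33, 5 and 2.72, with a difference of -0.86, against -0.88 for the hexokinase gene HK2. CD44-DT (chr11:35132655-35138951, minus strand), divergent from the gene of the hyaluronan receptor CD44, had 183, 171 and 107 and then 71.2, 78.4 and 59 (-0.78, limma adjusted p = 0.0052, against -1.32 for CD44). The call of CD44-DT was lost with each of siNT doxorubicin replicates 1 and 2 and the 3 siMLK4 doxorubicin replicates left out (differences from -0.67 to -0.84, limma adjusted p from 0.012 to 0.027). It was also lost with library totals (-0.74, short of the fold threshold) and on log2 normalized reads plus 1 (-1.11, limma adjusted p = 0.021).

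At EIF3J, among the 8 pairs with the most abundant divergent transcripts, the partner moved in the knock-down without EIF3J-DT being called. EIF3J, a translation initiation factor subunit gene, had 11700, 11400 and 9920 normalized reads in siNT cells with vehicle and 2070, 2230 and 2480 in siMLK4 cells, and 9060, 7870 and 9600 and then 1600, 1500 and 1860 with doxorubicin. EIF3J-DT, which starts 79 bases away, had 282, 239 and 309 and then 337, 331 and 432 with vehicle, and 477, 376 and 433 and then 382, 394 and 375 with doxorubicin. The knock-down differences were -2.26 and -2.38 for EIF3J (limma adjusted p = 9.7e-08 and 1.1e-07) and 0.35 and -0.14 for EIF3J-DT, neither of them called.

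**Figure D5:**
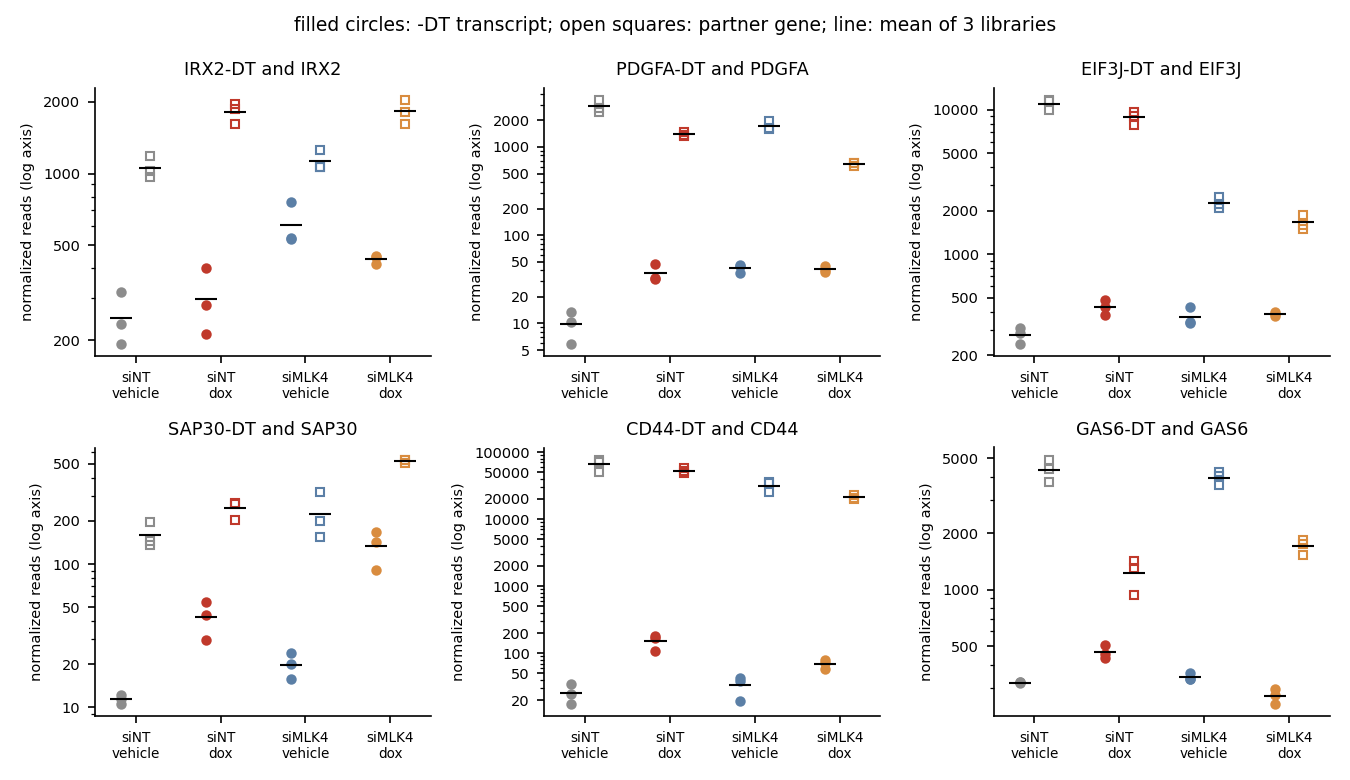
Normalized reads of 6 -DT transcripts (filled circles) and their partners (open squares) in the 12 libraries, on log axes, with the mean of 3 as a line. IRX2-DT and PDGFA-DT are higher in siMLK4 than in siNT cells with vehicle, EIF3J falls without EIF3J-DT, and SAP30-DT and CD44-DT move with their partners in the doxorubicin libraries.

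Whether knock-down changed the doxorubicin response was tested by the interaction term. No divergent transcript was called higher (beside 0.0999% of all rows) or lower (beside 0.176%) in limma, none was called by limma-voom, and 41 had an unadjusted p below 0.05 (15.1%, beside 14.5% of all rows). The 2 with an adjusted p below 0.05 were GAS6-DT and PDGFA-DT, named here after their values were seen. GAS6-DT, divergent from the gene of a ligand of the TAM receptor kinases, had 322, 319 and 321 normalized reads with vehicle and 508, 456 and 433 with doxorubicin in siNT cells, and 336, 335 and 359 and then 247, 275 and 298 in siMLK4 cells. It went up in one siRNA group and down in the other, with an interaction of -0.76 (limma adjusted p = 0.02). GAS6 fell in both (-1.79 and -1.18). PDGFA-DT had an interaction of -0.77 (limma adjusted p = 0.042), with 40.7, 44.2 and 38.1 normalized reads in siMLK4 cells with doxorubicin, no higher than with vehicle.

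Genes that act on the early life of promoter transcripts, from release of the paused polymerase to termination and decay, were listed as 5 groups with 69 members, of which 68 had a row (SUPT4H1 had none). With doxorubicin 4 rose (5.88%, beside 12.1% of all rows) and 9 fell (13.2%, beside 10.6%) in siNT cells, and 4 rose (5.88%, beside 12.6%) and 8 fell (11.8%, beside 10.6%) in siMLK4 cells. Their median log2 difference was -0.14 and -0.15, beside 0.00 and 0.02 over all rows. Of the 23 genes of the RNA exosome and its adaptors, 1 rose (4.35%) and 2 fell (8.7%) in each contrast, both below the shares of all rows. EXOSC8, a core subunit, was called in both (2640 ± 548 to 1050 ± 124 normalized reads in siNT cells, SD, n = 3, log2 differences -1.28 and -1.17). The genes that rose were the exonuclease gene DIS3 in siNT cells (0.87) and EXOSC4 in siMLK4 cells (0.77), and the others that fell were EXOSC5 in siNT cells (-0.75) and MPHOSPH6 in siMLK4 cells (-0.81), these 4 named after their values were seen. Of the 15 Integrator genes 6 fell in siNT cells (40.0%) and 4 in siMLK4 cells (26.7%), beside 10.6% of all rows in each, and none rose. Their median differences were -0.12 and -0.20. Among the 4 that fell in both contrasts, INTS10, INTS2 and INTS3 had the lowest values in siNT cells (-1.02, -1.02 and -0.96). INTS1 was at -1.09 there and was not called in siMLK4 cells (-0.50).

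Of the 17 cleavage, polyadenylation and termination genes 2 rose in both contrasts (11.8%), about the share of all rows (12.1% and 12.6%), and none fell. These were CSTF3, a subunit of the cleavage stimulation factor (2390 ± 190 to 6660 ± 568 normalized reads in siNT cells, SD, n = 3, log2 difference 1.46), and CSTF2T, a paralogue of the subunit CSTF2 (0.82). SNRPA, an RNA-binding protein of U1 snRNP, fell in both (-1.08 and -0.90), and the other 2 U1 proteins were not called. Of the 10 measured genes of promoter-proximal pausing, HEXIM1, an inhibitor of the elongation kinase P-TEFb, rose in both (1.75 and 1.31), 10% of the list beside 12.1% and 12.6% of all rows. NELFCD, a subunit of the negative elongation factor named after its value was seen, fell in siMLK4 cells (-0.88) and was at -0.66 in siNT cells, not called. In the knock-down with vehicle 1 of the 68 was higher (1.47%, beside 2.51% of all rows) and 3 were lower (4.41%, beside 3.14%). With doxorubicin 0 were higher (beside 2.66%) and 2 lower (2.94%, beside 2.93%). The lower ones, named after their values were seen, were SRRT (-1.25 and -1.48) and NUDT21 (-0.95 and -0.91) in both, and NCBP2 with vehicle (-1.0). The share that any of these genes had in the rise of divergent transcripts or in the knock-down ratios was not tested.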

How the data were processed

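RNA of HCC1806 cells was poly(A) selected, made into stranded libraries and sequenced by the authors, who trimmed with Trimmomatic 0.39, aligned with HISAT2, removed optical duplicates, counted reads on the reverse strand (HTSeq 0.6.0 in the processing notes) and used DESeq2 1.26.0. The build is GRCh38 in the methods and hg19 in the notes, and the table holds no coordinates, so positions are GENCODE release 44 (GRCh38), which held 16957 of the 17013 row identifiers. The deposited values are variance-stabilized log2-scale values. Inverting them gave whole reads (100% of values within 0.05) and the size factors.

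The members, lists and tests were chosen with earlier results of these data known. Main results are from limma 3.58.1 (R 4.3.3, trend) on the deposited values, 12 libraries and 4 group means, with Benjamini-Hochberg adjustment over all rows. Pair ratios were fitted likewise over 2354 pairs, with the lower row's level as trend. The script was tested on simulated data. Named genes are MAP3K21, the 8 most abundant members, up to 6 called and separated members per direction for doxorubicin and 4 for knock-down, called interactions, 5 pairs per direction by ratio in siNT cells, their partners, and up to 3 members per list called in both doxorubicin contrasts. Alternatives were other scalings, filters, scales, libraries, thresholds and pair windows. Same-numbered replicates deviated together in every pair for doxorubicin in siNT cells (r = 0.46, 0.11 and 0.20) and for knock-down with doxorubicin (0.19, 0.52 and 0.56), but not for the other 2 contrasts. A result on 1 further divergent transcript is not reported here.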

Additional observations from a re-analysis of the deposited data

Results flagged for a closer look

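Divergent transcripts are given here where the test of the difference between the responses itself, the limma interaction, had an adjusted p below 0.05. This is looser than the 0.01 used for calls, which neither of them met, and it was chosen after the values were seen. GAS6-DT had a log2 difference with doxorubicin of 0.47 in siNT cells and -0.29 in siMLK4 cells, and the libraries of the groups compared did not overlap in either. The interaction was -0.76 (limma adjusted p = 0.02). The same term, read across the other axis, is the change of its siMLK4 difference from 0.08 in vehicle to -0.67 with doxorubicin. Its mean over all libraries was 351 normalized reads.

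PDGFA-DT differed by 0.75 with doxorubicin in siNT cells and by -0.03 in siMLK4 cells, with an interaction of -0.77 (limma adjusted p = 0.042). Its siMLK4 difference was 0.86 in vehicle and 0.08 with doxorubicin.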

How the results depend on the processing

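The direction and the call of the named results held in 613 of 630 alternative values; 17 were weaker, over 9 results, and none was reversed. Counts of called -DT transcripts moved more. Doxorubicin in siNT cells gave 91 higher and 3 lower, against 28 higher with 10 reads in every library, 150 and 5 with log2 of normalized reads plus 1, 145 and 5 in limma-voom, 180 and 13 at an adjusted p below 0.05 with no fold threshold (66.2% and 4.78%, beside 29.6% and 27.7% of all rows), and 0 lower with library totals. Doxorubicin in siMLK4 cells gave 83 and 2, against 22 higher, 129 and 8, 128 and 8, and 167 and 17 (61.4% and 6.25%, beside 30.2% and 27.7%) under the first 4 of these settings in the same order. For the ratio in siNT cells (113 and 7), 10 reads in every library gave 37 and 2 of 95 pairs (38.9% and 2.11%, beside 22.4% and 12.8% of 1334 other pairs), and the looser threshold 18 lower (6.72%, beside 22.3%). For the ratio in siMLK4 cells (89 and 17), 10 reads in every library gave 27 and 7 (28.4% and 7.37%, beside 20.5% and 13.6%), the looser threshold 27 lower (10.1%, beside 22.7%), and limma-voom 11 lower. For knock-down in vehicle (6 and 0) the counts higher were 3 of 100 with 10 reads in every library (beside 2.62% of all rows), 14 with log2 of normalized reads plus 1 (5.15%, beside 5.26%), 2 with only the groups compared (0.735%, beside 1.48%) and 26 at the looser threshold, and those lower were 1, 1 and 4 with log2 of normalized reads plus 1 (beside 4.22%), limma-voom (beside 4.1%) and the looser threshold (9.56% and 1.47% at the last, beside 12.7% and 13% of all rows). The ratio for knock-down in vehicle (26 and 1), with alternatives chosen after seeing the data, gave 11 and 0 of 95 with 10 reads in every library (11.6%, beside 4.8%), 12 and 0 with only the groups compared, 12 higher in limma-voom, and 51 and 4 at the looser threshold (19.0% and 1.49%, beside 14.1% and 9.01%). For knock-down with doxorubicin (1 and 2) the -DT counts were 0 and 1 with 10 reads in every library (beside 2.79% and 3.44% of all rows), 4 and 4 with log2 of normalized reads plus 1 (beside 4.03% and 4.09%), 6 and 6 in limma-voom (beside 4.37% and 4.25%), 21 and 17 at the looser threshold (7.72% and 6.25%, beside 12.7% and 12.1%), and 1 lower with library totals (beside 2.34%). The ratio in the same contrast (14 and 2), also with alternatives chosen after seeing the data, gave 3 and 1 of 95 with 10 reads in every library (beside 3.07% and 3.6% of the other pairs), 5 and 1 with log2 of normalized reads plus 1 (1.87% and 0.373%, beside 2.06% and 2.49%), 9 higher in limma-voom, 4 lower with only the groups compared (1.49%, beside 3.45%), and 33 and 7 at the looser threshold (12.3% and 2.61%, beside 10.2% and 8.1%). The interaction gave 2 lower at the looser threshold (0.735%, beside 0.623%).

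Leaving out 1 library in turn gave 77 to 106 higher and 2 to 4 lower for doxorubicin in siNT cells, 68 to 91 and 2 to 3 in siMLK4 cells, 3 to 7 and 0 for knock-down in vehicle, 1 to 2 and 1 to 2 with doxorubicin, and 0 for the interaction. The ratio gave 93 to 114 higher and 6 to 8 lower in siNT cells, 79 to 103 and 14 to 18 in siMLK4 cells, 21 to 27 and 0 to 1 for knock-down in vehicle, and 8 to 15 and 1 to 3 for knock-down with doxorubicin. Knock-down with doxorubicin gave 2 higher without siNT doxorubicin replicate 2, and 1 lower without siNT doxorubicin replicates 1 or 2 or any siMLK4 doxorubicin replicate.

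The replicate block gave 91 and 3 for doxorubicin in siNT cells, 83 and 2 in siMLK4 cells, 6 and 0 and 1 and 2 for knock-down in vehicle and with doxorubicin, and 111 and 7, 88 and 17, 26 and 1, and 13 and 2 for the ratios, and changed no call of a named transcript. The depth, 16759025 to 19302248 reads a library, put the median member at 21.0 normalized reads, where 1 read is a large step. The cause of the moves between scales was not tested.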
